A study of Mus musculus with 23 samples.

Results

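ATV-CD98hc is an antibody transport vehicle, an antibody whose Fc part was engineered to bind CD98hc, the protein made by Slc3a2. The comparison is between the brain cells that carried the most of it, the high bin, and those of the next gate below, the medium bin. Its 4 libraries, 2 per bin, were chosen by their titles from the 23 libraries of the series. They held 58758 of the 234029 cells kept, a kept barcode having at least 500 genes, at least 800 unique molecular identifiers (UMIs) and at most 10% mitochondrial UMIs. Both bins came from the same 4 mice, which were CD98hc mu/hu KI animals on a C57BL/6J background, aged 12 weeks in the design text and 3.3 months in the sample labels. Each mouse received 45 mg/kg of the antibody, listed as DNP02 LALAPG LLB2-10-8 monovalent and coupled to the dye Alexa647, through the tail vein. Brains without olfactory bulbs, cerebellum, pons and medulla were collected 24 hours later after perfusion and dissociated with actinomycin D and anisomycin present. Live cells of 1 male and 1 female were pooled, and each of the 2 pools was sorted by dye signal into negative, low, medium and high bins. The gates were tertiles of the dye-positive cells of another group, TfR mu/hu KI mice given ATV-TfR, so the bins of ATV-CD98hc are not tertiles of its own cells. About 20% of live cells were dye-positive after ATV-CD98hc, about 30% after ATV-TfR and about 1% after control IgG in C57BL/6J mice. The 4 libraries hold no cell of an animal without the antibody and the knock-in.

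CD98hc is the heavy chain that brings light chains such as LAT1, the product of Slc7a5, to the cell surface, where the pair exchanges large neutral amino acids. In the brain this carrier is abundant on the endothelial cells that form the blood-brain barrier and is present on other cells. Along the vascular tree endothelial cells change their genes gradually from artery through capillary to vein, and pericytes, smooth muscle cells, fibroblasts and border macrophages lie against the vessel from outside.

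The medium libraries held 16902 and 19366 kept cells from 90307818 and 81430333 UMIs, and the high libraries 9854 and 12636 cells from 51537437 and 58631306 UMIs, each time for pool 1 and pool 2. Median depth was 3772.5 and 3077 UMIs per cell in medium and 3969 and 3639 in high, so depth was somewhat greater in the high bin of each pool. Between 29 and 85 barcodes were shared by any pair of the 4 libraries. Cells were clustered and clusters named from marker lists as "like" a cell type, so the class names are rebuilt here. Both bins of a pool hold cells of the same 2 animals, so results are given from a test that ignores the pool (the unpaired test) and, where it changes the call, from one with the pool as a replicate block (the paired test). Both use edgeR's quasi-likelihood test on counts summed per library and Benjamini-Hochberg adjusted p-values with a threshold of 0.05. With 2 pools, these p-values measure the spread between these libraries, and their precision rests on the other libraries of the series, which share the estimate of spread.

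Both bins were mostly endothelial-like, and the high bin more so in each pool. Endothelial-like cells were 76.1% and 75.5% of the medium libraries and 85.6% and 84.2% of the high libraries. The bins did not overlap, but the ratio was within the error of the test (log2 0.16, SE 0.27, adjusted p = 0.64). Of 15 named classes, 1 rose and 5 fell from medium to high, and 8 fell in the paired test. Clusters without a name held 8.16% and 8.82% of medium cells and 6.07% and 8.30% of high cells. Among these, cluster 25, led by arterial genes such as Gkn3 and Mgp and holding 12 of 12 endothelial and 9 of 11 astrocyte markers, was 1.53% and 1.60% of medium and 0.183% and 0.142% of high cells. Cluster 14, with 12 of 12 endothelial markers and pericyte genes in the lead, was 1.88% and 3.75% of medium and 2.63% and 4.98% of high cells. Cells of both are left out of the endothelial-like class.

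Astrocyte-like cells, whose endfeet cover the brain's vessels, were the most numerous class that fell. They were 7.27% and 9.02% of the medium libraries (1228 and 1746 cells) and 1.93% and 1.70% of the high libraries (190 and 215 cells). Every high library was below every medium library, with a log2 change of -2.17 (SE 0.28, adjusted p = 2.0e-05). Oligodendrocyte-like cells, the myelin-forming cells, numbered 77 and 65 in medium and 2 and 5 in high (log2 -3.63, SE 0.60, adjusted p = 0.00017). Oligodendrocyte precursor-like cells numbered 18 and 15 in medium and 2 and 0 in high (adjusted p = 0.019). Both classes of this lineage therefore fell with the astrocyte-like cells. The 5 falling classes became 2 without pool 1, 3 without pool 2, 2 without the medium library of pool 1 and 2 without the high library of pool 2.

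Blood-derived classes fell as well. Neutrophil-like cells numbered 34 and 17 in medium and 0 and 1 in high (adjusted p = 0.011). Monocyte or dendritic-like cells numbered 25 and 16 in medium and 3 and 2 in high (log2 -2.29, SE 0.68, adjusted p = 0.012). B cell-like cells numbered 26 and 20 against 4 and 0, a fall in the paired test only (adjusted p = 0.0012, against 0.057 unpaired). In each of these classes the high libraries lay below both medium libraries, but the numbers of cells were small.

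The brain's resident macrophages did not move together. Border macrophage-like cells, the macrophages of perivascular spaces and meninges, were the only class that rose. They were 0.674% and 0.475% of the medium libraries (114 and 92 cells) and 1.65% and 0.926% of the high libraries (163 and 117 cells), a log2 change of 1.16 (SE 0.33, adjusted p = 0.011). No class passed upwards without pool 1, without the medium library of pool 2 or without the high library of pool 1, a count of 0 in each. Microglia-like cells, the macrophages of the parenchyma, were 1.402% and 0.630% in medium and 0.751% and 0.245% in high. Their change of -1.04 (SE 0.49) had an adjusted p of 0.096 unpaired and 0.0018 paired, and the high library of pool 1 lay above the medium library of pool 2.

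No class of the vessel wall or the ventricles passed the unpaired test. Pericyte-like cells were 2.43% and 2.78% of medium and 1.78% and 2.91% of high, with overlapping libraries. Fibroblast-like cells were 0.692% and 0.578% of medium and 0.822% and 0.681% of high (log2 0.24, SE 0.28, adjusted p = 0.51). Choroid plexus epithelial-like cells, which make cerebrospinal fluid, fell from 332 and 232 to 116 and 105 cells in the paired test only (log2 -0.63, adjusted p = 0.038, against 0.23 unpaired). Counted per animal, over the cells whose sex could be read, that change was 0.16. Ependymal-like, neuron-like and smooth muscle-like cells numbered at most 32 in any library and did not pass either test, with log2 changes of -1.52 (SE 0.93), -0.53 (SE 1.08) and -0.83 (SE 0.63). The sort caught about 60000 cells per bin before loading, so a share describes a bin and not a brain.

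**Figure D1:**
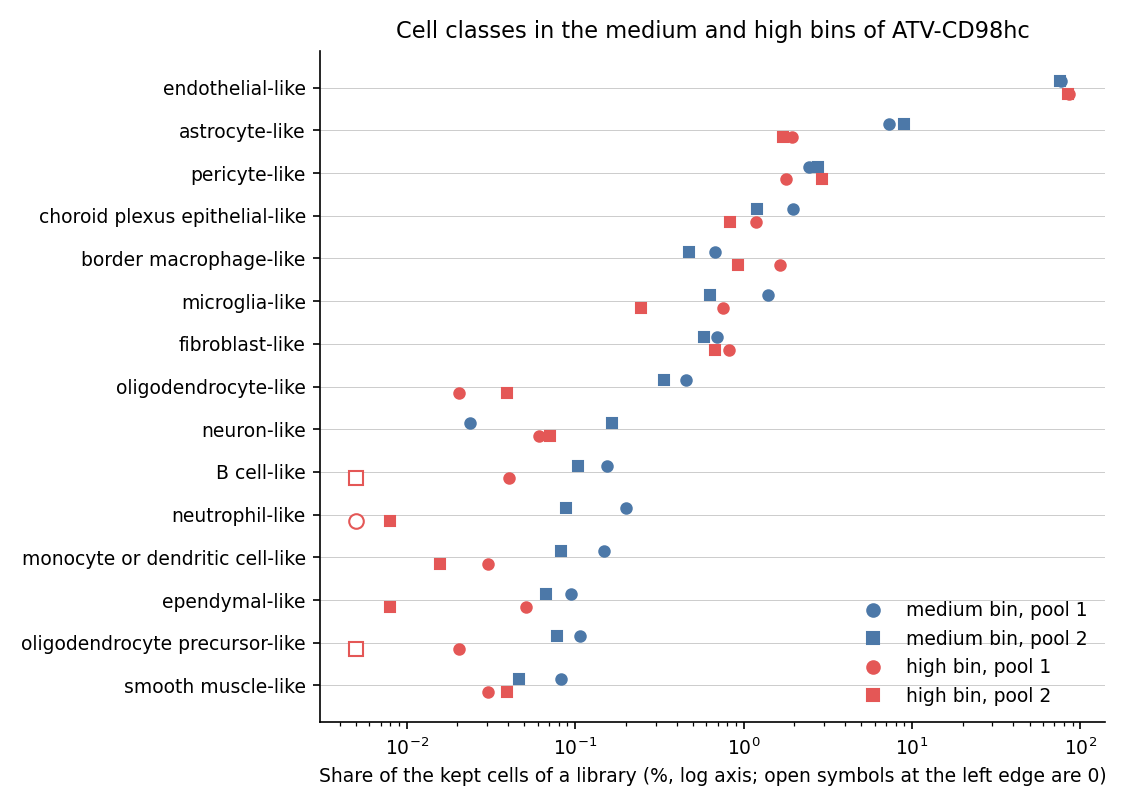
Share of the kept cells of each of the 4 libraries that fell into each named class, in percent on a log axis, with blue for the medium bin, red for the high bin, circles for pool 1 and squares for pool 2. Astrocyte-like and oligodendrocyte-like cells lie lower in both high libraries, border macrophage-like cells lie higher in both, and open symbols at the left edge are shares of 0.

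Because endothelial-like cells fill most of each library, the other classes were also counted as a share of the cells outside the endothelial-like class. These cells include the clusters without a name, several of which, clusters 14 and 25 among them, held 12 of 12 endothelial markers. Unnamed cells were 1379 of 4032 and 1709 of 4738 outside cells in medium, and 598 of 1422 and 1049 of 1994 in high. The scale is therefore not free of cells with endothelial markers. On that scale 2 classes rose and 3 fell. Border macrophage-like cells went from 2.83% and 1.94% to 11.5% and 5.87% of these cells (adjusted p = 0.0010), and fibroblast-like cells from 2.90% and 2.36% to 5.70% and 4.31% (adjusted p = 0.019). Astrocyte-like cells went from 30.5% and 36.9% to 13.4% and 10.8% (adjusted p = 0.0010). Oligodendrocyte-like and neutrophil-like cells also fell on this scale. Shares of one library are not independent of one another, since they sum to the whole.

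In the endothelial-like cells the difference between the bins was lopsided towards lower genes. Of 15155 genes tested on sums of 12870 and 14628 medium and 8432 and 10642 high cells, 5 were higher in high (0.033%) and 386 were lower (2.55%). Fitted on the 4 libraries alone, edgeR called 0 higher and 0 lower, with 44 and 790 at an unadjusted p under 0.05. The paired test called 266 higher (1.76%) and 832 lower (5.49%), including all 5 and all 386. The median change over all genes was 0.03 on the log2 scale. The 386 lower genes were mostly genes of other cells: 153 had their highest level in astrocyte-like cells, 59 in oligodendrocyte precursor-like, 43 in oligodendrocyte-like, 41 in neuron-like and 8 in endothelial-like cells. Genes highest in astrocyte-like cells were 8.04% of the genes tested and 39.6% of the 386. For oligodendrocyte precursor-like cells these shares were 7.46% and 15.3%, and for oligodendrocyte-like cells 6.38% and 11.1%. Genes highest in neuron-like cells were 8.72% of the genes tested and 10.6% of the 386, so their count lay near that background. Among the 266 genes higher in the paired test the endothelial-like class came first with 53, followed by the fibroblast-like class with 35. These classes were highest for 8.20% and 5.77% of the genes tested.

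**Figure D2:**
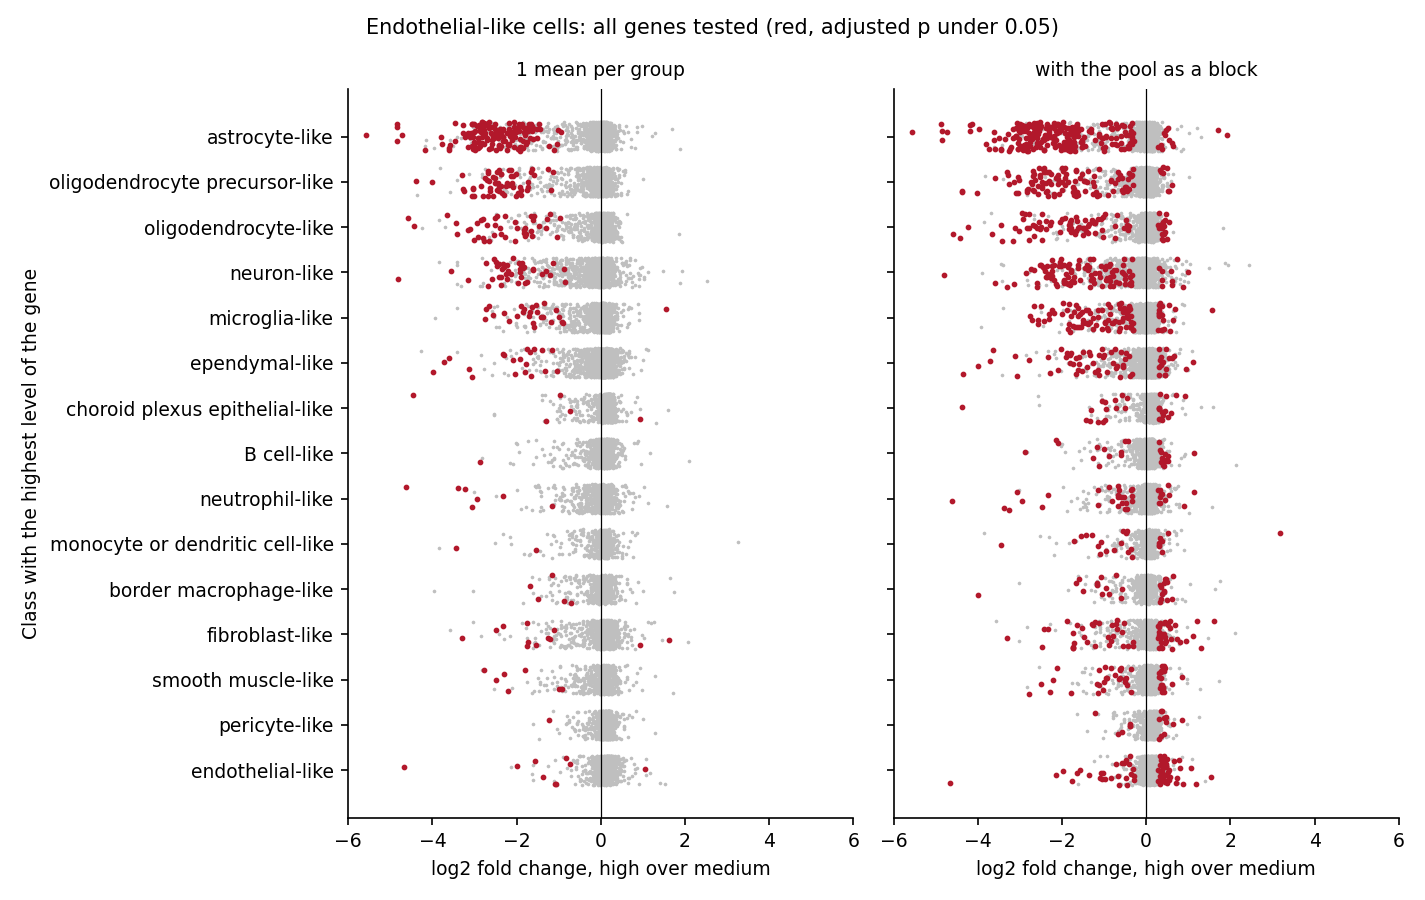
Log2 fold change from the medium to the high bin in endothelial-like cells for each of the 15155 genes, one point per gene, in rows by the class in which the gene's level was highest, without (left) and with (right) the pool as a block. Red points passed an adjusted p of 0.05. Most red points on the left are genes of astrocyte-like or oligodendrocyte-lineage cells and lie below 0. On the right endothelial-like genes also appear above 0.

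Among genes of at least 4 average log2 CPM, the 12 largest falls in the endothelial-like cells were of genes highest in astrocyte-like or oligodendrocyte precursor-like cells, except S100a6, which was highest in neutrophil-like cells. Lsamp, a cell adhesion molecule of the brain that was highest in oligodendrocyte precursor-like cells, was at 37.5 and 51.3 counts per 1000000 UMIs (CPM) in medium and 4.29 and 5.77 in high. Its change of -3.05 on the log2 scale (SE 0.36, adjusted p = 1.3e-05) was the largest of these. Gabrb1, a subunit of the GABA-A receptor, went from 6.49 and 10.7 to 0.801 and 1.14 CPM. Slc4a4, an astrocyte bicarbonate carrier, went from 14.8 and 21.9 to 2.04 and 2.57 CPM. No high library overlapped a medium library for any of these 3 genes, and the other 9 of the 12 largest falls (S100a6, Slc6a11, Luzp2, Gpc5, Gpr37l1, Gm3764, Lrrc4c, Bcan and Npas3) had changes from -2.95 to -2.81. Over all 15155 genes the high libraries lay above both medium libraries for 886 (5.85%) and below both for 2420 (16%). In all 4 animals the high bin was the lower one for Lsamp.

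Several marker lists of other cells had members that fell in the endothelial-like cells, where 2.55% of all genes fell. Of 11 astrocyte markers, 7 fell, and their summed level went from 182 and 231 CPM in medium to 93.4 and 94.03 CPM in high, with no marker at 0. Aqp4, the water channel of astrocyte endfeet, went from 2.38 and 4.18 to 0.181 and 0.765 CPM (log2 -2.65, SE 0.46, adjusted p = 0.00098), whereas Gja1 was at 37.1 and 33.1 in medium and 46.4 and 35.9 in high. Of 8 oligodendrocyte markers 6 fell, with a median change of -2.72, but their summed level was 578 and 620.5 CPM in medium and 772 and 774 in high. Most of that sum was Mal, at 560.5 and 603 against 768 and 769.6 CPM, which rose in the paired test (log2 0.49, adjusted p = 0.0057). Of 9 microglia markers 5 fell, while their sum was 124 and 88.3 CPM in medium and 115 and 115 in high. Of the border macrophage (4 tested), fibroblast (6) and B cell (3) markers none passed either test, with median changes of 0.27, -0.78 and 0.45. Both neutrophil markers that could be tested in the endothelial-like cells fell, with S100a8 at 0.932 and 0.493 against 0.0258 and 0.116 CPM. Cells with at least 1 UMI of an astrocyte marker were 48.0% and 47.9% of medium and 28.3% and 25.4% of high endothelial-like cells, at the medians of 3609 and 2963 against 3922 and 3595 UMIs. Thinned to 2000 UMIs per cell, Aqp4 had a UMI in 0.505% and 0.838% of medium and 0.0488% and 0.114% of high cells. The part of free RNA, of attached cell fragments and of doublets in these differences was not tested.

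Lower genes were also called in cells without an astrocyte UMI. Among the endothelial-like cells without one (6687 and 7621 medium, 6043 and 7938 high), a selection added after seeing the data, 2 genes rose (0.0148%) and 243 fell (1.8%), and 236 of these 243 were among the 386. Lsamp, which is not in the marker list, changed by -3.22 in these cells. In the paired test on the same cells 891 genes rose (6.59%) and 1446 fell (10.7%).

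The receptor gene itself was higher in high by a margin that passed only the paired test. Slc3a2 was at 237 and 248 CPM in medium and 253 and 363 in high, with 199 and 189 in the low bin. Medium and high did not overlap, and the difference came mostly from pool 2. Its log2 change was 0.45 (SE 0.20, adjusted p = 0.61) unpaired and 0.42 (SE 0.13, adjusted p = 0.025) paired, and it was higher in high in 4 of 4 animals. All these mice carry a partly human receptor gene, and how the human part was counted is not given in the sources used here.

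Slc7a5, Tfrc and Fcgrt did not pass either test. Slc7a5 was at 974 and 1025 CPM in medium and 1175 and 1187 in high (log2 0.33, SE 0.25, paired adjusted p = 0.15). Tfrc, the transferrin receptor, was at 593 and 450 against 671 and 496 CPM, so the libraries overlapped (paired adjusted p = 0.30). Fcgrt, which encodes the Fc receptor that recycles antibodies, was at 468 and 676 against 494 and 682 CPM (log2 0.13, SE 0.24). Each of these 3 genes was higher in high within both pools and in all 4 animals. Of 6 tested genes for antibody binding and Fc receptors, Fcgrt among them, none rose and 1 fell in the paired test, beside 1.76% and 5.49% of all genes. That was Fcer1g, the signalling chain of Fc receptors, which was highest in border macrophage-like cells and went from 1.81 and 1.62 to 0.853 and 0.719 CPM (paired log2 -1.04, adjusted p = 0.0028, against 0.13 unpaired). Of the 7 genes for CD98 heavy and light chains, none rose and 2 fell, beside 2.55% of all genes, and in the paired test 1 rose, Slc3a2, and 2 fell. Both that fell were highest in other cells: Slc7a10, highest in astrocyte-like cells, from 2.38 and 3.16 to 0.129 and 0.603 CPM (adjusted p = 0.00039), and Slc7a11, highest in fibroblast-like cells, from 2.13 and 3.14 to 0.904 and 0.811 CPM (adjusted p = 0.013). The list's median change was -0.01, beside 0.03 over all genes.

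**Figure D3:**
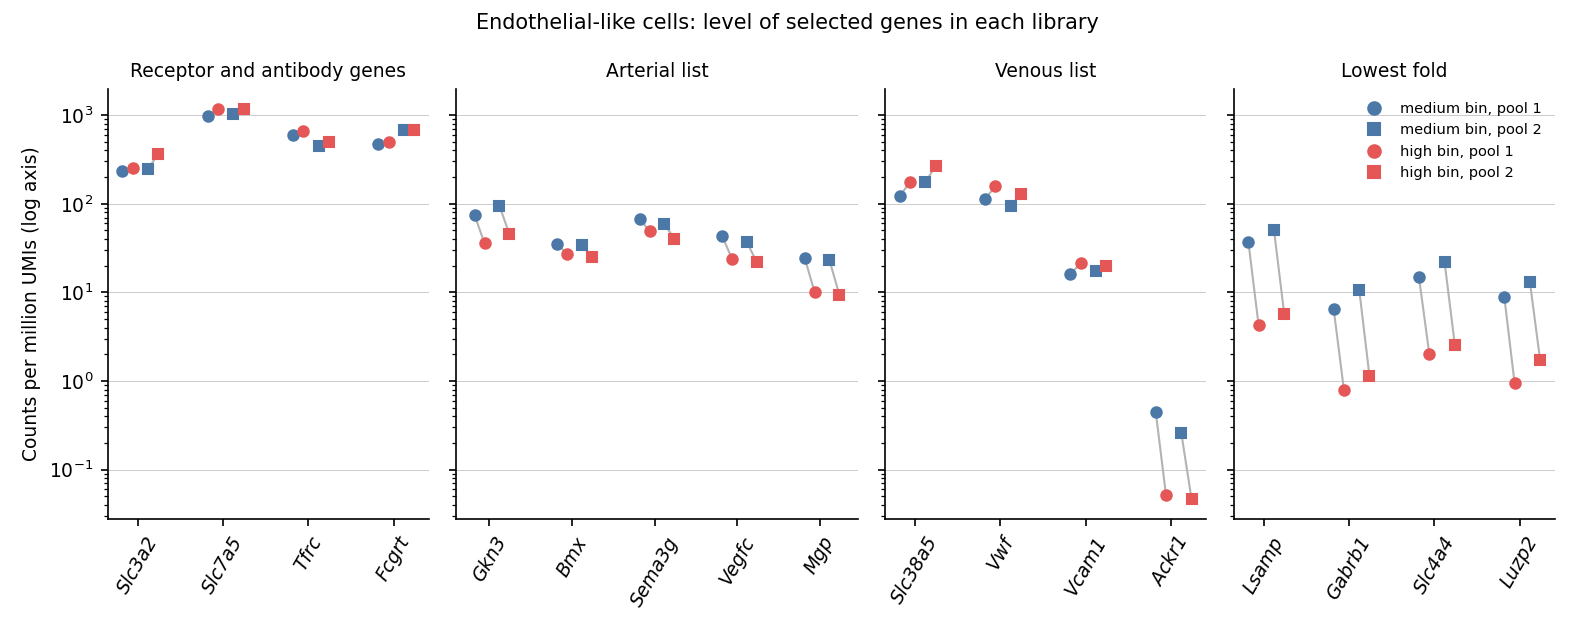
Level of selected genes in the endothelial-like cells of each library, in counts per 1000000 UMIs on a log axis, with a line joining the medium (blue) and high (red) library of a pool. The arterial genes Gkn3, Vegfc and Mgp lie lower in both high libraries, Slc38a5 and Vwf lie higher within both pools, and Slc3a2 differs mainly in pool 2.

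Some arterial genes were lower in the high bin. Mgp, a matrix protein of large vessels that was highest in fibroblast-like cells, was at 24.4 and 23.1 CPM in medium and 10.1 and 9.36 in high (log2 -1.20, SE 0.27, adjusted p = 0.010). Vegfc, a growth factor for lymphatic vessels that is made by arterial cells, was at 43.3 and 36.8 against 23.7 and 21.9 CPM (log2 -0.73, SE 0.20, adjusted p = 0.042). These were the 2 of 8 arterial genes that fell unpaired, beside 2.55% of all genes, with no overlap between the bins in either. In the paired test 5 of 8 fell, beside 5.49% of all genes. Gkn3, an arterial marker, was at 74.4 and 95.6 against 35.9 and 45.9 CPM (paired log2 -0.97, adjusted p = 2.8e-10). Bmx, an arterial kinase that was highest in neutrophil-like cells, was at 35.5 and 34.7 against 27.0 and 24.8 CPM (paired adjusted p = 0.025). Sema3g was at 67.3 and 58.9 against 49.2 and 40.3 CPM (paired adjusted p = 0.0080). The list's median change was -0.39.

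Not every arterial gene went down. In a second list of 6 arterial genes, not used for the zones below, Clu and Fbln5 fell, beside 2.55% of all genes, and both were highest outside the endothelial class, Clu in astrocyte-like and Fbln5 in fibroblast-like cells. Dll4, the Notch ligand of arterial and tip cells, went the other way, from 65.9 and 73.4 to 89.8 and 91.9 CPM, and rose in the paired test (log2 0.47, adjusted p = 0.0017). The median of that list was -0.05.

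Some venous genes were higher in the high bin, in the paired test only. Slc38a5, an amino acid carrier of capillary and venous cells, was at 122 and 175 CPM in medium and 175 and 269 in high, higher within each pool (paired log2 0.65, SE 0.13, adjusted p = 1.6e-05; unpaired adjusted p = 0.65). Vwf, the clotting factor carrier of larger vessels, was at 114 and 95.3 against 157 and 128 CPM without overlap (paired log2 0.52, adjusted p = 0.0013). Vcam1, a leukocyte adhesion molecule, was at 16.1 and 17.6 against 21.4 and 19.9 CPM (paired adjusted p = 0.034). These 3 of 6 venous genes rose, beside 1.76% of all genes. Ackr1, a chemokine receptor of large veins, fell from 0.448 and 0.256 to 0.0517 and 0.0464 CPM (paired adjusted p = 0.0082). In a second venous list of 7 genes, Il1r1 was among 2 that rose and Lrg1 fell in the paired test. Over all genes 1.76% rose and 5.49% fell in that test. The median changes of the 2 venous lists were 0.45 and 0.18, beside 0.03 over all genes.

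Of 7 capillary genes and 4 of a second capillary list none passed unpaired. The lists' median changes were 0.21 and 0.25, beside 0.03 over all genes. In the paired test 1 gene of each list rose, beside 1.76% of all genes. Mfsd2a, the lipid carrier that restrains transcytosis at the barrier, rose from 265 and 386 to 362 and 486 CPM (paired log2 0.48, SE 0.13, adjusted p = 0.0051). Ivns1abp, from the second list, was at 151 and 145 against 244 and 193 CPM (paired log2 0.63, adjusted p = 1.5e-05). Plvap, the diaphragm protein of fenestrated and leaky vessels, was at 2.65 and 4.83 against 0.982 and 1.11 CPM and fell unpaired (log2 -1.75, SE 0.44, adjusted p = 0.025). The endothelial-like cluster led by Plvap, cluster 23, held 16 and 19 cells in medium and 4 and 4 in high, which is 0.124% and 0.130% against 0.0474% and 0.0376% of the endothelial-like cells. Its part in the fall of Plvap was not tested. In the cells without an astrocyte UMI its change was -2.33 (adjusted p = 0.19 unpaired and 2.3e-14 paired). In the cells with at most 1 UMI of the markers of other classes it was 0.23, but that selection leaves out many endothelial-like cells, since Mal, at 560.5 to 769.6 CPM in them, counts as such a marker.

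The 5 genes that rose in the unpaired test were low to moderate in level. F5, coagulation factor V, was at 11.1 and 10.2 CPM in medium and 18.7 and 19.4 in high (log2 0.93, SE 0.22, adjusted p = 0.016). Angpt2, the angiopoietin that destabilises vessels, was at 6.58 and 5.88 against 11.7 and 10.8 CPM (log2 0.94, SE 0.25, adjusted p = 0.038). Fibin was at 1.18 and 1.50 against 3.64 and 4.10 CPM (adjusted p = 0.0037). Fscn1, an actin-bundling protein, was at 0.609 and 0.829 against 2.07 and 1.92 CPM (adjusted p = 0.017). Cyp2e1, a cytochrome P450, was at 2.80 and 4.70 against 6.90 and 7.74 CPM (adjusted p = 0.046). Each was higher in high in all 4 animals, and only Cyp2e1 was highest in the endothelial-like class. Without the high library of pool 2 only 1 gene in all was higher, and none of these 5 was called, whereas 27 were higher without the medium library of pool 2, 14 without the high library of pool 1, 10 without pool 1 and 14 without pool 2. The count of lower genes was 198 without the high library of pool 1.

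In the unpaired test Angpt2 was the only member that rose among 13 genes of VEGF and angiopoietin signalling, and 2 fell, beside 0.033% and 2.55% of all genes. The paired test called 2 higher and 3 lower, beside 1.76% and 5.49%. Vegfa, highest in astrocyte-like cells, fell from 1.95 and 2.41 to 0.362 and 0.394 CPM (log2 -2.42, SE 0.32, adjusted p = 3.4e-05), and Vegfc fell as given above. Apln, the apelin ligand of tip cells, was at 0.788 and 1.50 against 3.64 and 3.38 CPM and rose in the paired test (log2 1.72, adjusted p = 1.1e-12, against 0.075 unpaired). The list's median change was 0.10.

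Of 1242 tested genes that peaked in the endothelial-like class, 8 fell: P2ry2, Ccdc184, Slc26a10, Slco2a1, Olfm5, Krtap28-13, Rbp7 and Vegfc. These were only 2.07% of the 386 lower genes, while such genes were 8.20% of the genes tested. Over all genes 2.55% fell. Slc26a10, of the SLC26 anion exchanger family, stood at 105 and 125 CPM in medium and 47.7 and 56.5 in high (log2 -1.05, SE 0.20, adjusted p = 0.0027). It was at 224 and 176 CPM in the low bin, so its level was lower in each brighter bin of both pools. P2ry2, a receptor for extracellular nucleotides, went from 4.64 and 4.95 to 1.06 and 1.20 CPM (log2 -1.99, SE 0.28, adjusted p = 7.9e-05). Slco2a1, the prostaglandin carrier, went from 6.33 and 4.85 to 3.02 and 1.99 CPM (log2 -1.08, SE 0.25, adjusted p = 0.011).

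In the paired test several endothelial genes of higher level rose. Rflnb, a filamin-binding protein, was at 260 and 244 CPM in medium and 397 and 392 in high (paired log2 0.73, SE 0.13, adjusted p = 3.0e-06). Meox1, a homeobox factor, was at 13.7 and 21.4 against 23.3 and 33.5 CPM (paired log2 0.79, adjusted p = 3.0e-12). Cdkn2b, a cyclin-dependent kinase inhibitor, was at 62.0 and 87.8 against 99.5 and 131 CPM (paired log2 0.71, adjusted p = 9.3e-08). Ndnf, a secreted protein, was at 291 and 264 against 397 and 375 CPM (paired log2 0.56, adjusted p = 0.00035). In all of these the high bin was above the medium bin of its own pool, and all had unpaired adjusted p-values above 0.05, between 0.061 for Cdkn2b and 0.14 for Rflnb. Rsad2, the antiviral protein viperin, fell from 122 and 114 to 79.7 and 75.1 CPM (paired log2 -0.53, adjusted p = 0.00050). Alpl, tissue-nonspecific alkaline phosphatase, which was highest in fibroblast-like cells, fell from 139 and 146 to 90.5 and 96.5 CPM (paired log2 -0.52, adjusted p = 0.00091).

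Several barrier, transport and metabolic lists had no call in the endothelial-like cells, where the paired test called 1.76% of all genes higher and 5.49% lower. None of the 12 tested junction genes, 8 glucose, lactate and thyroid hormone carriers or 9 ABC transporters passed the paired test. Nor did any of 22 clathrin, adaptor, retromer and ESCRT genes, 13 Rab GTPases, 15 MHC genes or 17 of oxidative phosphorylation. The MHC genes were mostly of class I, with Cd74, H2-Aa and H2-Ab1 of class II. In the cells without an astrocyte UMI the paired test called 6.59% of all genes higher and 10.7% lower. From these lists it called 1 carrier, 2 ABC transporters, 2 Rab GTPases, 4 MHC genes and 1 of oxidative phosphorylation there. Cldn5, the main claudin of the barrier, was at 6642 and 8369 CPM in medium and 7315 and 8899 in high, and Slc2a1, the glucose carrier GLUT1, at 1580.0 and 1849 against 1691 and 1973 CPM, both higher within each pool by less than the error. Of 12 iron-handling genes 1 rose paired, Steap3, an endosomal iron reductase, from 19.8 and 27.0 to 28.8 and 34.2 CPM. Of 10 amino acid carriers outside CD98, Slc38a5 and Slc7a3 rose paired, and Slc6a9 and Slc1a5 fell. Of 12 genes for other shuttle receptors 2 fell paired, Alpl among them, of 19 lysosomal genes 1 rose and 1 fell, and of 19 genes of Wnt signalling at the barrier 1 rose. Of 18 immediate early genes 5 fell paired, among them Fos from 9.59 and 10.9 to 4.96 and 7.09 CPM and Egr3 from 3.82 and 3.20 to 1.55 and 1.21 CPM. Of 15 basement membrane genes 3 rose paired (Col4a3, Lamb1 and Sparc).

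Each endothelial-like cell thinned to 2000 UMIs was placed in an arterial, capillary, venous or intermediate range by its scores for the 3 zone lists, which makes the ranges parts of a gradient and not types. Between 15.2% and 20.0% of the cells of a library lay within 0.1 of the margin that separates the ranges. Few molecules set the arterial and venous ranges: in both bins their cells held a median of 2 UMIs of their own list. Arterial-range cells also held a median of 14 UMIs of the capillary list in medium and 16 in high. Cluster 26, led by arterial genes, held 3801 arterial-range cells, while clusters 28 and 30 held 997 and 856. The venous range held 21.4% and 20.9% of scored cells in medium (21.2% ± 0.301, SD, n = 2) and 26.8% and 29.2% in high (28.0% ± 1.70, SD, n = 2). Its log2 change of 0.41 (SE 0.16) had an adjusted p of 0.071 unpaired and 0.0019 paired. The arterial range held 18.6% and 16.8% in medium and 15.5% and 14.4% in high (log2 -0.25, SE 0.11, adjusted p = 0.071 unpaired and 0.00032 paired). In both ranges the libraries of the 2 bins did not overlap. Thinned to 3000 UMIs, the arterial change was -0.54, and without the top gene of each list (Gkn3, Spock2 and Slc38a5) the arterial and venous changes were -0.17 and 0.32.

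The shift was present in each mouse when cells were assigned to the male or the female of their pool by sex-linked genes. In pool 1 the venous range went from 20.8% to 26.6% in the female and from 21.6% to 27.9% in the male. In pool 2 it went from 19.6% to 27.9% in the female and from 21.0% to 29.4% in the male. The arterial range was lower in high in all 4 mice, at 19.5% in medium against 16.6% in high in the female of pool 1 and 17.7% against 14.7% in its male. The capillary range was higher in 1 of 4 mice, and its libraries overlapped, with 33.0% and 39.7% in medium and 34.8% and 35.8% in high (adjusted p = 0.80). The intermediate range fell in the paired test, from 27.0% and 22.6% to 22.9% and 20.7% (adjusted p = 0.0042, against 0.25 unpaired). Its log2 change of -0.19 was -0.05 without the medium library of pool 1, -0.11 without the high library of pool 2 and -0.31 without the medium library of pool 2. The scores use the zone genes above, so the ranges and those genes are not separate evidence.

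**Figure D4:**
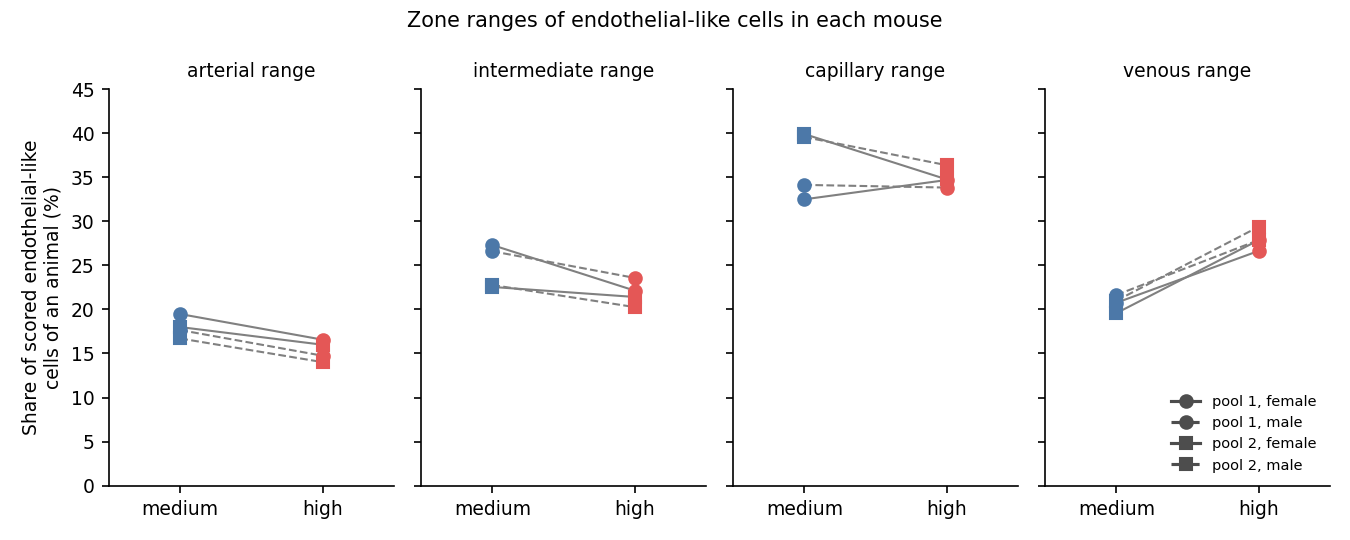
Share of scored endothelial-like cells in each zone range in the medium and high bin, in percent, with 1 line per mouse (circles pool 1, squares pool 2, solid female, dashed male). The venous share is higher in high and the arterial share lower in high in all 4 mice, while the capillary share rises in 1 mouse and falls in 3.

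Fewer genes were called when only capillary-range cells were compared, but that fit was also smaller. The range held 9262 medium and 6294 high cells. In it 12567 genes were tested, against 15155 over all endothelial-like cells. The part of the smaller number of cells in the lower count was not tested. Of 12567 genes, Angpt2 alone rose (0.00796%), with a log2 change of 1.01 and an adjusted p of 0.019, and 102 fell (0.812%), of which 101 were among the 386. The paired test gave 258 (2.05%) and 609 (4.85%), and 10 genes rose without pool 1 and 15 without pool 2. The range is set by scores that use the zone genes, so their changes within a range are partly fixed by the selection and no test of them is given: Vegfc changed by -0.05, Mgp by -0.27, Gkn3 by -0.24 and Slc38a5 by 0.52 in capillary-range cells. Among the genes that the scores do not use, those that passed the paired test there included Meox1 (0.78), Cdkn2b (0.64) and Dll4 (0.49 unpaired log2), and Slc26a10 stayed lower at -0.97. Lsamp was also lower in capillary-range cells, by -3.13 (adjusted p = 0.00043). Egfl8, which did not differ over all endothelial-like cells (0.07), was higher in the capillary range by 0.73 (paired adjusted p = 1.3e-05, against 0.28 unpaired). Slc3a2 changed by 0.31 in the capillary, 0.61 in the arterial, 0.27 in the venous and 0.39 in the intermediate range, and passed only in the arterial range of the paired test (adjusted p = 0.0015).

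The step from medium to high was not the same as that of ATV-TfR in its own mice. After ATV-TfR the arterial range held 42.9% and 44.0% of medium and 15.7% and 14.4% of high cells, and after ATV-CD98hc the 42.4% and 39.3% of the low bin had already given way to 18.6% and 16.8% in medium. The difference between the steps, CD98hc minus TfR, was 1.28 on the log2 scale for the arterial range (SE 0.15, adjusted p = 9.2e-07), -1.08 for the capillary range (SE 0.25, adjusted p = 0.00091) and -0.30 for the venous range (SE 0.23, adjusted p = 0.28). Antibody and knock-in differ together between these mice and cannot be told apart, and the gates were set on ATV-TfR cells.

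The same test over genes in endothelial-like cells called 23 genes with a more positive step for CD98hc (0.152%) and 1, Cxcl10, with a more negative one (0.0066%). The paired test called 449 (2.96%) and 164 (1.08%). Without pool 1 of CD98hc the counts were 167 and 14, and without pool 2 they were 174 and 14. Vegfc fell from 112 and 122 CPM in TfR medium to 26.4 and 20.3 in TfR high, against 43.3 and 36.8 to 23.7 and 21.9 for CD98hc, a difference of 1.38 (adjusted p = 0.039). Mgp differed by 1.86, Bmx by 1.52, Mannr by 1.44 and Egfl8 by 1.81, and all 4 passed. Only Mannr, Vegfc, Egfl8 and C1qtnf9 of the 23 were highest in endothelial-like cells. Most of the 23 were highest in astrocyte-like, oligodendrocyte-lineage or microglia-like cells, such as Mir99ahg, Kirrel3, Mdga2, Pcdh9 and Laptm5. The smallest p was that of Il1rapl1, highest in oligodendrocyte precursor-like cells, with a difference of 2.10 (adjusted p = 0.0023). Levels in the 2 high bins lay close to each other for Vegfc, while the medium bins were apart.

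Among the minor classes, the astrocyte-like cells left in the high bin held more endothelial transcripts. Of 16177 genes, 171 rose (1.06%) and 145 fell (0.896%), and 94 of the 171 were genes highest in endothelial-like cells, beside 6.88% of all genes tested. Cldn5 was at 205 and 294 CPM in medium and 633 and 771 in high astrocyte-like cells (log2 1.38, SE 0.33, adjusted p = 0.037), and Igfbp7, a vascular matrix protein, at 49.0 and 65.8 against 201 and 277 CPM (log2 1.94, SE 0.26, adjusted p = 0.0014). The 12 endothelial markers summed to 949 and 1072 CPM in medium and 2834 and 2733 in high, with 9 of them called. Genes that fell included Lhx2, a factor of forebrain patterning, from 60.5 and 70.5 to 18.2 and 22.5 CPM (adjusted p = 0.0083), and Igfbp2, which was highest in choroid plexus epithelial-like cells, from 152 and 189 to 35.2 and 60.5 CPM (adjusted p = 0.0012).

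The astrocyte-like clusters were not equally represented in the bins. Cluster 3, led by genes such as Lhx2, held 21.6% and 21.0% of the medium and 8.42% and 7.44% of the high astrocyte-like cells. Cluster 7, led by Pde6g and Gnb3, went the other way, from 1.873% and 1.375% of medium to 8.421% and 5.581% of high. Within cluster 8, which held the largest part of each bin, 6 genes rose and 5 fell (19 and 68 paired), and the 5 named endothelial genes that rose over the class (Cldn5, Ly6c1, Igfbp7, Egfl7 and Itm2a) all had the opposite sign. Cldn5 changed by -1.52 (adjusted p = 0.23 unpaired and 0.00011 paired) and Ly6c1 by -1.86 (0.085 and 0.00079). Egfl7 changed by -2.04 and Itm2a by -1.59, which passed the paired test, and Igfbp7 by -1.56, which did not. Within cluster 11, 32 rose and 57 fell (44 and 105 paired), with Cldn5 at 0.54 (adjusted p = 0.57 unpaired and 0.31 paired) and Igfbp7 at 0.20, and Igfbp2 fell there too (log2 -3.59, adjusted p = 6.6e-09). The sign of the change of Cldn5 was therefore not the same in both clusters, a difference that was not tested. The 316 calls of the class became 0 without pool 1, 43 without pool 2, 171 without the medium library of pool 1 and 201 without that of pool 2. They became 46 without the high library of pool 1 and 102 without that of pool 2.

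In border macrophage-like cells 31 of 10232 genes rose (0.303%) and 42 fell (0.41%). Il1b, the cytokine interleukin-1 beta, was at 35.8 and 71.6 CPM in medium and 174 and 242 in high (log2 2.11, SE 0.42, adjusted p = 0.023). Col14a1 was at 28.3 and 52.8 against 193 and 140 CPM (log2 2.22, adjusted p = 0.020), and Nlrc5 and Ccl4 also rose. For none of these did the bins overlap. Il1b was highest in neutrophil-like cells.

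The 5 named genes that fell in the border macrophage-like cells had no UMI in either high library. Knl1, of the kinetochore, had 19 and 12 UMIs in medium and 0 and 0 in high, at least 8.81-fold lower against a floor of 3 counts over the bin. Kif20b, a mitotic kinesin, was at least 7.1-fold lower (16 and 9 against 0 and 0 UMIs), and Dlgap5 at least 5.97-fold. Cd209a, a marker of dendritic cells that was highest in the border macrophage-like class, was at least 8.52-fold lower (21 and 9 against 0 and 0 UMIs), and Btla, of lymphoid cells, at least 9.66-fold, although 33 of its 34 medium UMIs came from pool 1. Knl1 and Dlgap5 were highest in neutrophil-like cells and Btla in B cell-like cells, both of them classes with fewer cells in the high libraries, and the part of such cells in these falls was not tested. The endothelial markers summed to 4210 and 4383 CPM in medium and 1927 and 1754 in high, and median depth was 3738.5 and 1924.5 against 1918 and 1622 UMIs, whose part in these differences was not tested. The 8 border macrophage markers summed to 6370.5 and 8068 CPM in medium and 4850.4 and 5541.7 in high, without overlap. Why this sum was lower in high was not tested. The counts rest on single libraries: 73 genes were called in all, 2 without pool 1, 0 without pool 2, 3 without the high library of pool 1, 7 without the medium library of pool 1, 9 without the high library of pool 2 and 29 without the medium library of pool 2.

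The choroid plexus epithelial-like cells differed most in number of genes, and their clusters differed between the bins too. Of 12377 genes, 1243 rose (10%) and 2336 fell (18.9%). Cluster 17 held 93.7% and 89.2% of these cells in medium and 37.1% and 26.7% in high, and cluster 18 held the rest. Median depth over the class was 9486 and 6601.5 UMIs in medium and 13588.5 and 15282 in high. The 12 endothelial markers summed to 1523 and 4026 CPM in medium and 1915 and 1766 in high, and 6 of them fell. Of the 2336 lower genes 262 were highest in endothelial-like cells, as were 8.02% of all genes tested, and the part of these transcripts in the differences was not tested. Within cluster 17 only 1 gene rose and 3 fell, and within cluster 18 likewise 1 rose and 3 fell. Over the class, Slc35f1 went from 10.6 and 20.7 to 99.5 and 89.1 CPM (log2 2.40, SE 0.28, adjusted p = 4.4e-07), and Grm3, a glutamate receptor of astrocytes, had 88 and 24 UMIs in medium and 0 and 0 in high, at least 22.4-fold lower. Within cluster 17 the change of Slc35f1 was 0.73 and did not pass, and within cluster 18 it was 1.32 and passed the paired test only (adjusted p = 0.033). Without pool 1 the class gave 1478 calls, and without the high library of pool 1 it gave 2178, against 3579.

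Fibroblast-like cells also changed in make-up. Cluster 39 held 62.4% and 49.1% of them in medium and 88.9% and 88.4% in high, and cluster 24 held the rest. Over the class 28 of 11533 genes rose (0.243%) and 136 fell (1.18%), and within cluster 39 1 rose and 2 fell (76 and 160 paired). Crym, a thyroid hormone-binding protein, was at 21.8 and 20.3 CPM in medium and 144 and 141 in high (log2 2.73, SE 0.47, adjusted p = 0.0022). Slc15a2, a peptide carrier, was at 18.7 and 22.8 against 112 and 65.1 CPM (log2 2.07, SE 0.31, adjusted p = 0.00064). Both genes were highest in astrocyte-like cells, and within cluster 39 they passed the paired test only, with adjusted p = 0.00011 for Crym (0.087 unpaired) and 0.00024 for Slc15a2 (0.069 unpaired). Gria2, a glutamate receptor subunit, had 24 and 3 UMIs in medium and 0 and 0 in high, at least 6.45-fold lower. The 11 astrocyte markers summed to 2458 and 2662 CPM in medium and 507 and 588 in high fibroblast-like cells. The 12 endothelial markers summed to 5603 and 6464 CPM in medium and 2072 and 3680.3 in high, none of them called, and 36 of the 136 lower genes were highest in endothelial-like cells, beside 8.29% of all genes tested. The part of either set in these differences was not tested. The 164 calls of the class became 33 without pool 1, 64 without pool 2, 97 without the medium library of pool 1 and 53 without the high library of pool 1.

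The genes called in pericyte-like cells were genes of other cells. In edgeR's unpaired test no gene rose (0%, with 42 higher at an unadjusted p under 0.05) and 6 of 11926 fell (0.0503%), among them Slc1a2, the astrocyte glutamate carrier, from 45.8 and 119 to 2.49 and 2.45 CPM (log2 -5.02, SE 0.61, adjusted p = 0.00057), and others such as Aldoc, Cadm2, Gpc5 and Pcdh9. Of these named genes Aldoc did not pass the paired test (adjusted p = 0.067, against 0.047 unpaired). All 6 were highest in astrocyte-like or oligodendrocyte-lineage cells. The count was 0 without pool 2 and 0 without the high library of pool 2, 1 without the medium library of pool 2 and 1 without the high library of pool 1, and 27 without the medium library of pool 1, and DESeq2 called 15. Slc26a10, which fell in endothelial-like cells, was at 66.4 and 53.4 against 24.0 and 26.4 CPM in pericyte-like cells, where it fell in the paired test (adjusted p = 0.012). Pericyte-like cells also held endothelial transcripts: the 12 endothelial markers summed to 18244 and 16182 CPM in medium and 18420.0 and 17555 in high, beside 14012 and 20920.0 against 15301 and 19015 for the pericyte markers. Their part in the fall of Slc26a10 was not tested.

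In microglia-like cells no gene of 12436 passed edgeR's unpaired test (0%), with 354 higher and 472 lower at an unadjusted p under 0.05 and 47 called by DESeq2. Without the high library of pool 1, 5 genes passed. The paired test called 9 higher (0.0724%) and 2 lower (0.0161%). Fth1, the ferritin heavy chain, was at 2851 and 2996 CPM in medium and 4736 and 10673 in high (paired log2 1.36, adjusted p = 2.9e-05). Cd52, a surface glycoprotein of leukocytes, was at 232 and 279 against 461 and 679 CPM (paired adjusted p = 0.0031), and Ftl1, the ferritin light chain, at 1490 and 1685 against 1973 and 5167 CPM (paired adjusted p = 0.0034). The bins did not overlap in these 3 genes, but the high library of pool 2 held only 31 microglia-like cells. B cell-like, ependymal-like, monocyte or dendritic-like, neuron-like, neutrophil-like, oligodendrocyte-like, oligodendrocyte precursor-like and smooth muscle-like cells had fewer than 20 cells in a high library and were not tested for genes.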

How the data were processed

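Counts per cell were deposited by the authors as 1 matrix made with Cell Ranger 7.1.0, per the file headers, on mm10/GRCm38, per the submitters' processing notes; these are UMI counts with no normalization. Barcodes were kept as described above. Doublets were marked with scrublet in scanpy 1.11.5. Its automatic threshold marked almost none here, so the cells above percentile 94 of the doublet score in each of the 4 libraries (577 to 1204 cells) were removed. Clusters came from the Leiden method in igraph 0.11.9 (2000 variable genes, 50 components, 15 neighbours, resolution 1). They were named where at least 3 markers and a share of 0.5 of a list were detected, with exceptions. A cluster stayed unnamed if several lists passed and its leading genes did not point to the best of them alone. It also stayed unnamed if its leading genes held more markers of another list. The clusters led by Chga and by Arhgap45 were left unnamed after they were seen. Several of the unnamed clusters held all endothelial markers.

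Counts were summed per library and class with at least 20 cells and fitted with edgeR 4.0.16 (TMM factors, 1 mean per group over all libraries, quasi-likelihood test) in R 4.3.3. Levels are plain counts per 1000000 UMIs (CPM) and fold changes are TMM-scaled. The labels say that both bins of a pool hold cells of the same 2 mice, and the difference between pools correlated at 0.969 between the bins over 8047 genes, so a fit with the pool as a replicate block is given where it changes a call. Zone ranges used cells thinned to 2000 UMIs and a margin of 0.25 between scores. Cell and zone counts were tested in edgeR with the library's cells as the total. The unpaired tests of genes and of cell numbers were tried on simulated data without a pool effect. The paired test was not tried on simulated data.

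The classes and lists were chosen with earlier results of these data known. Named genes were the 12 with the highest and the 12 with the lowest change past the threshold among those of at least 4 average log2 CPM without overlap of the libraries, up to 4 called members of each list, the zone genes, Slc3a2, Slc7a5, Tfrc and Fcgrt, and up to 5 per direction in each minor class. Aqp4, Gja1, S100a8, Slc2a1, the lower genes highest in endothelial-like cells, F5, Fibin, Fscn1, Cyp2e1, the genes named from the paired test and by range, and the microglia genes were chosen after their values were seen. Some genes that these rules name are not reported here. Alternatives varied the samples fitted, the pool block, the animal, cells and clusters summed, doublets, filters, thinning, margin, scaling and tool (DESeq2 1.42.0), and left out each library or pool.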

Additional observations from a re-analysis of the deposited data

Results flagged for a closer look

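In endothelial-like cells the step of Vegfc from the medium to the high bin differed between ATV-CD98hc and ATV-TfR by 1.38 on the log2 scale (edgeR quasi-likelihood test of the difference, adjusted p = 0.039), with the smaller fall after ATV-CD98hc. The same test applied to the share of cells in the arterial range gave a difference of 1.28, and for the capillary range one of -1.08. In each case a test of the difference itself passed between mice that differ in both antibody and knock-in.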

How the results depend on the processing

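With the pool as a replicate block the endothelial-like cells gave 266 higher and 832 lower genes, the capillary range 258 and 609, and the difference from ATV-TfR 449 and 164. The block also gave 8 falling classes, 476, 328, 434 and 11 calls in astrocyte-, border macrophage-, fibroblast- and microglia-like cells, and arterial, intermediate and venous changes of -0.25, -0.18 and 0.40, all past the threshold. Fitted on the 4 libraries alone, 0 genes rose and 0 fell (44 and 790 at an unadjusted p under 0.05 in edgeR), 0 classes rose and 2 fell, and the venous range changed by 0.41 and passed. With the block added after seeing the data, 2837 genes rose and 2427 fell. That fit had 1 residual degree of freedom, so its counts rest on a spread shared across genes more than on replication.

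Leaving out a library or pool, the endothelial-like counts ran from 1 to 27 higher and 198 to 383 lower, capillary-range genes from 10 to 15 higher, and the difference from ATV-TfR from 167 to 174 higher with 14 lower. Rising classes ran from 0 to 1 and falling classes from 2 to 7. Calls ran from 0 to 201 in astrocyte-like, 0 to 29 in border macrophage-like, 1478 to 3115 in choroid plexus epithelial-like, 33 to 122 in fibroblast-like, 0 to 5 in microglia-like and 0 to 27 in pericyte-like cells. Changes that were not called turned sign for pericyte-like cells (-0.55 to 0.16), neuron-like cells (-1.30 to 1.44), the capillary range (-0.17 to 0.10) and Fcgrt (-0.22 to 0.47).

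Higher endothelial genes numbered 1 on the 8 CD98hc libraries, 2 with doublets kept, 1 on thinned cells, 3 with stricter cell filters, 3 with RLE factors, 8 with DESeq2, 17 without a filter on low counts and 38 per animal. Cells with at most 1 UMI of other classes' markers gave 0 higher and 37 lower, with Plvap at 0.23, and genes of at least 4 average log2 CPM gave 0 and 56, where fewer genes were tested. Added after seeing the data, the unnamed endothelial clusters gave 2 and 974, cells without an astrocyte UMI 2 and 243 (891 and 1446 with the block), the arterial range 3 and 117 (66 higher with the block), the venous range 0 and 65 (365 higher with the block) and the intermediate range 1 and 124 (136 higher with the block). With the animal as replicate block, 1363 genes rose and 1695 fell. Both fits per animal gave 8 falling classes, choroid plexus epithelial-like changes of 0.16 and 0.36, arterial changes of -0.23 and -0.23, intermediate changes of -0.19 and -0.18 and venous changes of 0.43 and 0.43, the zone changes past the threshold.

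As a share of the cells outside the endothelial class, 2 classes rose and 3 fell, and choroid plexus epithelial-like, neuron-like and pericyte-like cells changed by 0.028, 0.15 and 0.52. A margin of 0.5 gave arterial and venous changes of -0.30 and 0.42, thinning to 1500 UMIs a venous change of 0.38, and thinning to 3000 UMIs -0.54, 0.015 and 0.50 in the arterial, capillary and venous ranges, past the threshold except for the capillary one. DESeq2 called 562 genes in astrocyte-like, 2347 in choroid plexus epithelial-like, 47 in microglia-like and 15 in pericyte-like cells, and RLE factors 2 in pericyte-like cells. Within single clusters, 11 and 89 genes were called in astrocyte-like clusters 8 and 11, 4 and 4 in choroid clusters 17 and 18, and 3 in fibroblast-like cluster 39. Where no other value is given the cause was not tested.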
